A study of Mus musculus with 6 samples.

Results

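The 35 genes described here encode the proteins that bring glucose into the cell, break it down to lactate, divert it into the pentose phosphate pathway and adjust both routes through hypoxia-inducible factor (HIF) and Myc. They were listed by function, with earlier results of these data known, and looked up by symbol. All 35 were among the 24628 genes of the deposited table, and 31 of them entered the test between groups. They were measured by RNA-seq in 6 mouse libraries from lymphocytes that the series text calls ILC1s, group 1 innate lymphoid cells, which produce interferon-γ. Of these, 3 libraries are titled as Rora fl/fl, carrying floxed alleles of the gene of the nuclear receptor RORα, and 3 are titled treatment. The comparison asks which transcripts differ in ILC1s when Rora is deleted. The series text sets wild-type against conditional knockout (cKO) cells, so by elimination those titled treatment stand for the cKO group. Their column names add Ncr1, the gene of an activating receptor of ILC1s and natural killer cells, to Rora. Whether an Ncr1 Cre drove the deletion, and which other alleles the groups carried, is not given in the labels. They give neither the organ, the sort gate, the age and sex of the mice nor the number of animals, and they leave unsaid whether the replicates came from separate animals. The p-values therefore reflect the spread among these libraries alone, possibly a technical one. All 6 libraries held both Xist, a transcript of female cells, and the Y-linked Ddx3y, so none was of 1 sex alone. A library of both sexes is not from 1 animal. Whether the 3 libraries of a group came from 1 shared pool of animals is not given, so their SDs may not measure the spread between animals. Xist and Ddx3y differed between the groups (values below), and the part of sex in the comparison was not tested.

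Glycolysis splits glucose into pyruvate in the cytosol and yields ATP and NADH, and lactate dehydrogenase regenerates the NAD it uses. The pentose phosphate pathway draws glucose-6-phosphate off to make NADPH and ribose for nucleotides. Activated lymphocytes are known to raise both, and 2 transcription factors that do so are Myc and HIF-1α, a protein that prolyl hydroxylases mark for destruction through the VHL ubiquitin ligase when oxygen is present. These controls act largely on proteins and fluxes, and the libraries report transcripts only.

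Depth was 20152146 to 22440170 reads per library. The floxed gene itself, Rora, was at 6.92, 7.41 and 7.91 RPKM in floxed and 5.69, 6.29 and 6.24 RPKM in cKO libraries, groups that did not overlap. Its mean was 7.42 ± 0.493 RPKM (reads divided by the length of the gene and the depth of the library; SD, n = 3) in the floxed group and 6.07 ± 0.334 RPKM in the cKO group (n = 3), an 81.9% level whose adjusted p in limma was 0.242 (0.0238 to 0.465 over 15 alternatives, under 0.05 only with limma voom), so that the labels were only weakly checked by this gene. Il2ra, the interleukin-2 receptor α chain, was at 14.5 ± 0.638 and 7.45 ± 0.725 RPKM (adjusted p = 0.00649), and the proliferation gene Mki67 at 28.2 ± 0.954 and 19.7 ± 1.04 RPKM (adjusted p = 0.0141). That p for Mki67 became 0.0502 without a mean-variance trend, 0.0876 with a replicate block and 0.0583 to 0.0687 without floxed replicate 2, floxed replicate 3, cKO replicate 2 or cKO replicate 3. All 12 defining ILC1 and NK markers passed the filter on low values, with summed levels of 1241 to 1262 RPKM in floxed and 1067 to 1094 RPKM in cKO libraries, and Ncr1, Eomes and Cxcr6 fell while Il7r rose. Of 32 immediate-early and dissociation-response genes, 20 of the 31 tested rose and 0 fell (2 at an unadjusted p under 0.05 and 1 with voom; median difference 0.49), and their summed level was 3899 to 3969 RPKM in floxed and 5550 to 5605 RPKM in cKO libraries. Of the 6 tested B cell markers, 3 fell (H2-Ab1, Cd74 and Cd22), with sums over all 10 of 176 to 183 and 136 to 154 RPKM. At an unadjusted p under 0.05, 4 lay lower and 1, Ighm, higher (difference 0.21, adjusted p = 0.208). Of 8 tested T cell markers, 1 fell (Cd3e, and 2 fell with voom), with sums of 382 to 393 and 383 to 400 RPKM. Of these, 3 lay lower and 1, Trbc1, higher at an unadjusted p under 0.05 (difference 0.12). Of 3 tested macrophage and monocyte markers, 0 passed in limma (1 lower at an unadjusted p under 0.05, 0 with voom), with sums of 27.7 to 32.5 and 25.8 to 26.3 RPKM. Over all tested genes, 0.652% passed as higher and 0.668% as lower. At an unadjusted p under 0.05 the shares were 5.55% and 8.6%. No listed marker of another cell type that the table holds was at 0 in all 6 libraries, which a few reads suffice for. Neutrophil markers summed to only 0.525 to 2.07 RPKM and liver markers to 0.170 to 1.54 RPKM per library, with 0 tested. The dendritic cell, erythroid, stromal, ILC2 and ILC3 lists had 0 passing genes in limma, and 1 dendritic cell marker was higher with voom. At an unadjusted p under 0.05 in limma, 1 gene was lower in each of the dendritic cell (3 tested), erythroid (2), stromal (1) and ILC2 (3) lists. In each of the dendritic cell and ILC3 (3 tested) lists 1 was higher. Stromal sums were 17.5 to 17.6 RPKM in floxed and 14.0 to 16.1 RPKM in cKO libraries, and erythroid sums 2.33 to 6.24 and 1.61 to 2.57 RPKM. The part of these differences in the results below was not tested. In whole-cell RNA, fewer cells of a type and less RNA per cell cannot be told apart.

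No gene of the set passed the test between cKO and floxed libraries. Of the 31 tested genes, 0 were higher and 0 lower at an adjusted p under 0.05 (limma on log2(RPKM + 1), Benjamini-Hochberg over all 12731 tested genes), against 1.32% of all tested genes in either direction, 0.652% higher and 0.668% lower. The smallest adjusted p in the set was 0.235, for Pgk1. At an unadjusted p under 0.05 there were 4 lower genes, Pgk1, Pkm, Aldoa and Tkt, and 0 higher ones, against 8.6% and 5.55% of all tested genes. A second test, limma voom on the recovered reads, called 4.18% of all genes and again 0 of the 31. At an unadjusted p under 0.05 it had 5 of the 31 lower, the same 4 and Eno1, and 0 higher. Over all 12731 tested genes it had 1310 lower and 738 higher at that threshold. Differences ran from -0.20 (Egln3) to 0.17 (Bnip3) on the log2(RPKM + 1) scale, cKO minus floxed, with a median of -0.04 against -0.03 over all tested genes. They were below 0 for 20 of the 31, or 64.5%, against 57.3% of all tested genes.

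The measurements bounded these differences closely. The 95% confidence interval of the difference lay within a 1.5-fold change in either direction for 30 of the 31 genes, and the exception was Bnip3, whose interval ran from -0.27 to 0.61. Over all tested genes the share was 76.0%. The median standard error was 0.08 in the set and 0.11 over all tested genes. With voom, whose scale has no added 1 RPKM, 25 of the 31 intervals stayed within 1.5-fold, against 8200 of all 12731 tested genes. The added 1 RPKM narrows the intervals of low genes, so the count of 30 holds for the log2(RPKM + 1) scale only.

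**Figure D1:**
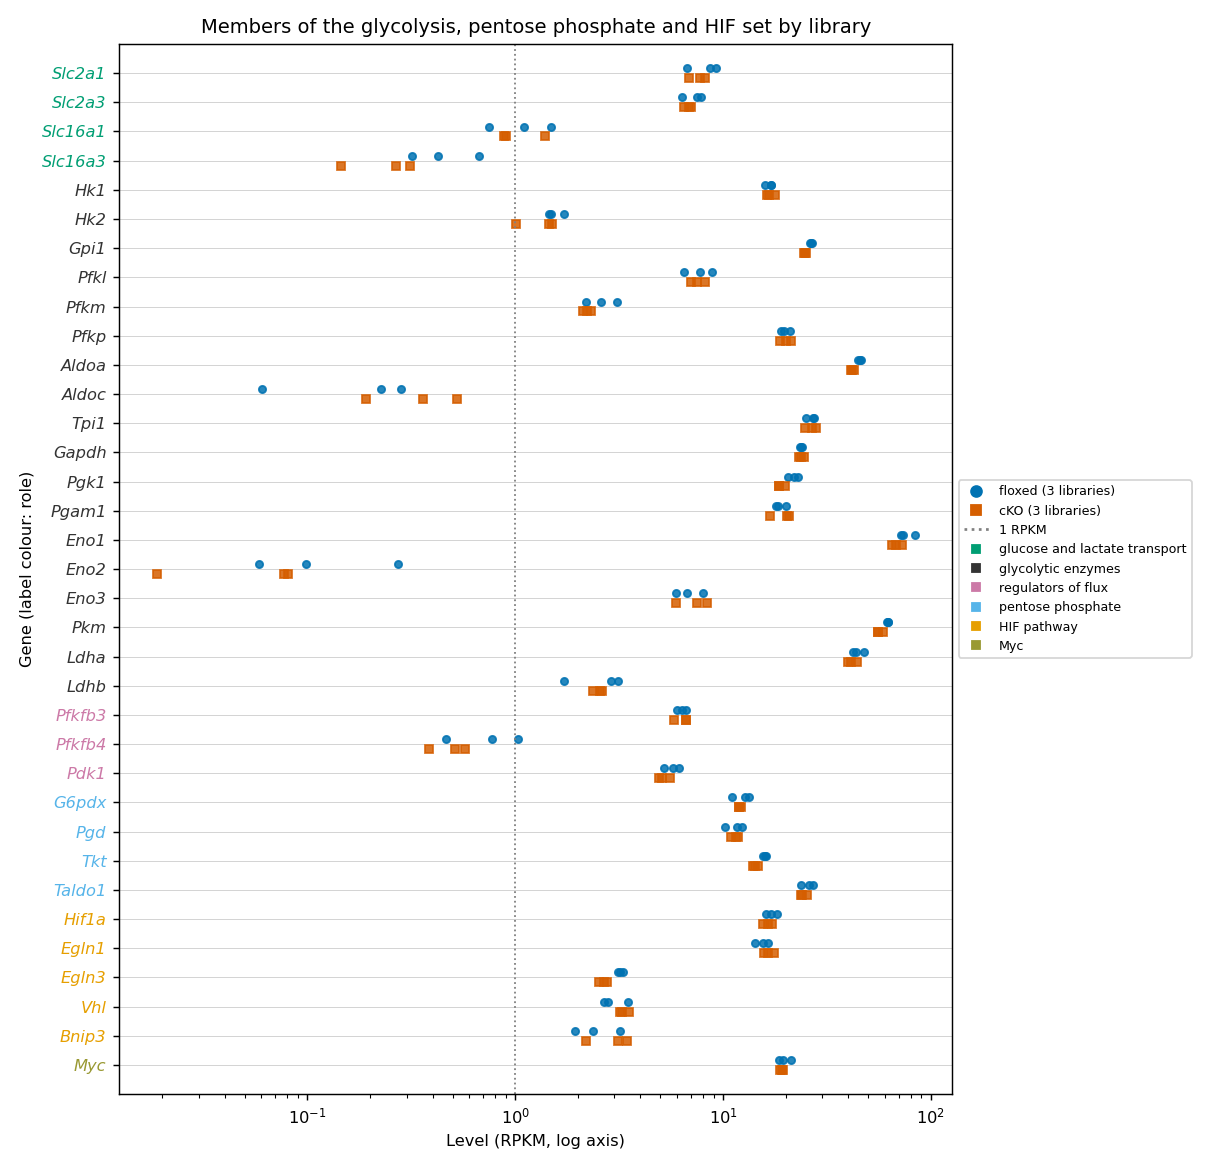
Level of each of the 35 genes in each library, in RPKM on a log axis, with floxed libraries as blue circles, cKO libraries as orange squares and 1 RPKM as the dotted line. Eno1 and Pkm lie highest, Slc16a3, Aldoc and Eno2 lie below 1 RPKM in all 6 libraries, and the circles and squares of most genes interleave.

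Among the transporters, Slc2a1 and Slc2a3, which encode the glucose carriers GLUT1 and GLUT3, were read at similar levels. Slc2a1 was at 8.64, 6.69 and 9.24 RPKM in floxed and 6.89, 8.16 and 7.73 RPKM in cKO libraries (difference -0.09, interval -0.39 to 0.21). Slc2a3 was at 6.34, 7.84 and 7.5 RPKM in floxed and 6.50, 7.03 and 6.88 RPKM in cKO libraries (difference -0.07, interval -0.29 to 0.15). The groups overlapped for both, and the lowest and the highest Slc2a1 values were both from floxed libraries. Of the proton-linked carriers that move lactate and pyruvate, Slc16a1 (MCT1) was at 0.752 to 1.48 RPKM in floxed and 0.886 to 1.39 RPKM in cKO libraries, on 72 to 142 reads per library. Slc16a3 (MCT4), the export form usual in highly glycolytic cells, was at 0.667, 0.317 and 0.426 RPKM in floxed and 0.268, 0.312 and 0.145 RPKM in cKO libraries. These groups did not overlap, but Slc16a3 rested on 17 to 77 reads per library and did not reach the 1 RPKM needed for the test across genes.

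The 2 steps that commit glucose to glycolysis gave overlapping groups for every tested paralogue. Hk1, the broadly expressed hexokinase, was at 17, 17 and 15.9 RPKM in floxed and 16.2, 17.8 and 16.6 RPKM in cKO libraries (difference 0.02, interval -0.13 to 0.17). Hk2, the hexokinase that HIF and insulin signals are known to induce, was at 1.46 to 1.72 and 1.01 to 1.5 RPKM (difference -0.14, interval -0.48 to 0.19). For phosphofructokinase the platelet form Pfkp was at 19.0, 20.9 and 19.7 RPKM in floxed and 20.1, 21.2 and 18.9 RPKM in cKO libraries (difference 0.02, interval -0.14 to 0.17). The liver form Pfkl was at 6.47 to 8.82 and 7.05 to 8.16 RPKM. The muscle form Pfkm was at 3.10, 2.60 and 2.20 RPKM in floxed and 2.11, 2.32 and 2.21 RPKM in cKO libraries (difference -0.17, SE 0.13, interval -0.47 to 0.13, adjusted p = 0.613).

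Between these steps and the triose phosphates, 2 genes had all cKO libraries below all floxed ones. Gpi1, glucose-6-phosphate isomerase, was at 26.9, 26.5 and 26.2 RPKM in floxed and 24.5, 25.0 and 24.9 RPKM in cKO libraries, 93.6% of the floxed mean (difference -0.09, SE 0.04, interval -0.20 to 0.01, adjusted p = 0.421). Aldoa, the aldolase of muscle and most other tissues, was at 44.5, 45.6 and 46.3 RPKM in floxed and 41.3, 42.8 and 41.7 RPKM in cKO libraries, 92.2% of the floxed mean (difference -0.12, SE 0.04, interval -0.22 to -0.01, adjusted p = 0.296). Its brain paralogue Aldoc stayed at 0.0608 to 0.523 RPKM and was not tested. Tpi1, triosephosphate isomerase, was at 25.0 to 27.5 RPKM in floxed and 24.8 to 28.1 RPKM in cKO libraries, and its means were 26.5 RPKM in both.

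The later steps of the pathway, where ATP and pyruvate are made, held the remaining small differences. Gapdh, glyceraldehyde-3-phosphate dehydrogenase, was at 23.7, 23.5 and 23.9 RPKM in floxed and 24.5, 23.3 and 23.8 RPKM in cKO libraries (difference 0.01, interval -0.10 to 0.12). Pgk1, phosphoglycerate kinase, which makes the first ATP of the pathway, was at 21.9, 22.9 and 20.6 RPKM in floxed and 18.5, 19.8 and 18.5 RPKM in cKO libraries. All 3 cKO values lay below all 3 floxed ones, at 87.0% of the floxed mean (difference -0.19, SE 0.06, interval -0.33 to -0.05, unadjusted p = 0.0169, adjusted p = 0.235 in limma). Pgk1 is X-linked (X, 106187100 to 106203699, plus strand, mm10), and the groups differed in sex-linked transcripts, whose part in its values was not tested. Xist, transcribed from the inactive X of female cells, was at 28.3, 34.2 and 33.2 RPKM in floxed and 9.35, 9.86 and 9.09 RPKM in cKO libraries, and the Y-linked Ddx3y at 10, 11 and 10.3 and at 21.3, 20.5 and 20.5 RPKM. Every library thus held transcripts of X inactivation and of the Y chromosome, in a balance that differed between the groups. Its part in the other differences given here, that of Txnip included, was not tested either.

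Pgam1, phosphoglycerate mutase, was at 18.3, 17.9 and 20.1 RPKM in floxed and 20.8, 16.9 and 20.4 RPKM in cKO libraries, whose range enclosed the floxed one. Eno1, the enolase of most tissues, was the most abundant transcript of the set, at 72, 83.5 and 73.4 RPKM in floxed and 68.1, 72.3 and 65.2 RPKM in cKO libraries. The highest cKO value lay just above the lowest floxed value, and the mean was 89.9% of the floxed one (difference -0.15, SE 0.07, interval -0.32 to 0.02, adjusted p = 0.411), and without floxed replicate 2, the highest library, the difference was -0.08. Eno3, the muscle form, was at 5.91 to 7.97 and 5.97 to 8.36 RPKM, and the neuronal Eno2, on 2 to 26 reads per library, was not tested. Pkm, pyruvate kinase, was at 61.6, 62.4 and 62.1 RPKM in floxed and 55.9, 58.8 and 55.9 RPKM in cKO libraries. The floxed values were within 1 RPKM of each other and the cKO values all below them, at 91.7% (difference -0.12, SE 0.04, interval -0.22 to -0.03, unadjusted p = 0.0203, adjusted p = 0.256 in limma). Ldha, the lactate dehydrogenase subunit induced by HIF and Myc, was at 43.6, 42.2 and 47.5 RPKM in floxed and 41.3, 40.0 and 44.1 RPKM in cKO libraries (difference -0.08, SE 0.06, interval -0.23 to 0.07, adjusted p = 0.625). Its heart-type partner Ldhb was at 1.71 to 3.11 and 2.38 to 2.63 RPKM.

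Summed over the 18 glycolytic enzyme genes, the level was 399.1, 408.5 and 403.3 RPKM in floxed and 378.1, 388.2 and 376.4 RPKM in cKO libraries. The groups did not overlap, with 404 ± 4.70 (SD, n = 3) against 381 ± 6.38 RPKM (n = 3), or 94.4% (exact two-sided permutation test, p = 0.1, the smallest that 20 assignments allow). Eno1 and Pkm made up 33.6% of the sum. With libraries rescaled by median-of-ratios factors of 0.989 to 1.01, the sums were 395.8 to 402.8 and 379.6 to 392.6 RPKM, still apart but at 96.4%. Over the single genes of the whole set, 6 of 31 had cKO values all below floxed values, Gpi1, Aldoa, Pgk1, Pkm, Tkt and Egln3, which is 19.4% against 12.7% of all tested genes, and 0 had them all above, against 7.61%.

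**Figure D2:**
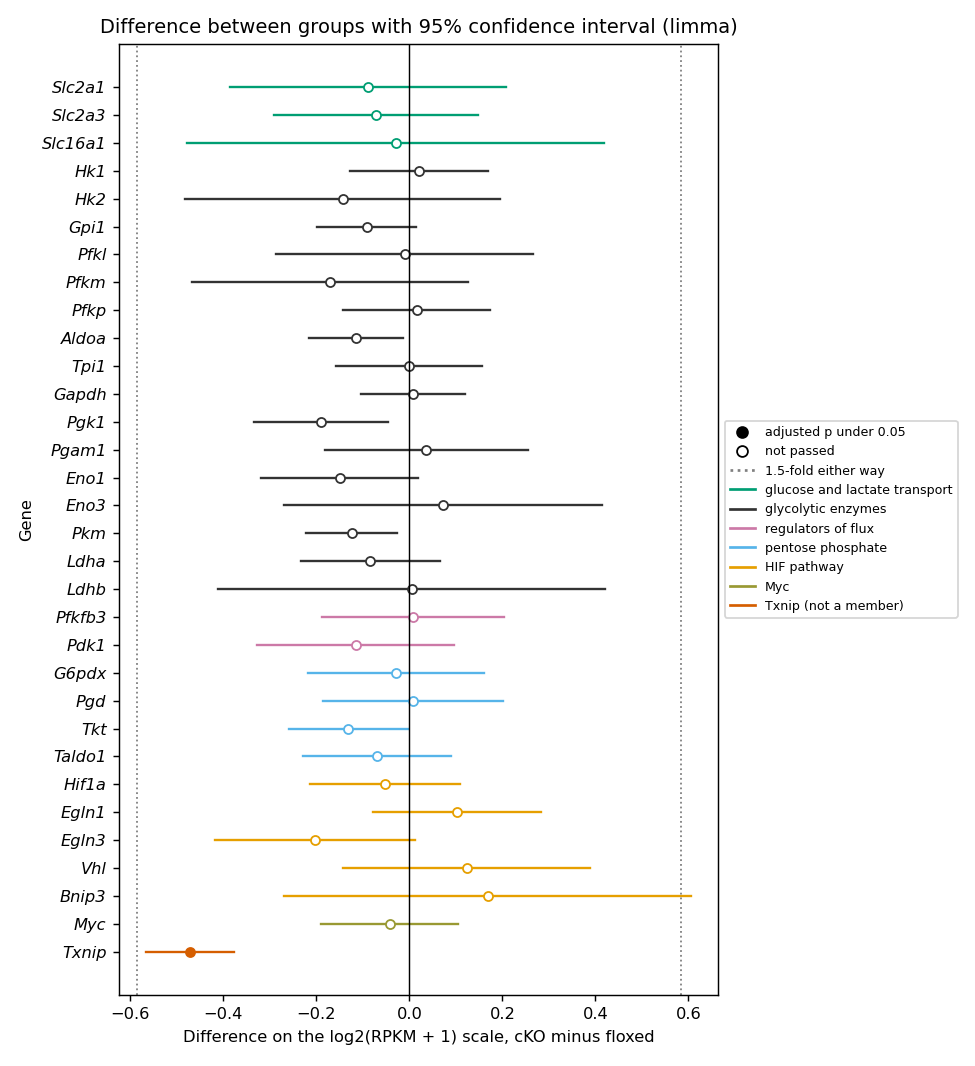
Difference of each of the 31 tested genes on the log2(RPKM + 1) scale, cKO minus floxed, as a point with its 95% confidence interval from limma. The 31 points lie between -0.20 and 0.17, and 30 of the 31 intervals stay within a 1.5-fold change on that scale. Txnip, which is not a member, is drawn as well, at -0.47.

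The regulators of flux showed no passing difference. Pfkfb3, the kinase that makes fructose-2,6-bisphosphate, the activator of phosphofructokinase, was at 6.62, 6.35 and 6.03 RPKM in floxed and 5.82, 6.66 and 6.65 RPKM in cKO libraries (difference 0.01, interval -0.19 to 0.20). Pfkfb4 was at 0.465 to 1.03 and 0.384 to 0.573 RPKM and was not tested. Pdk1, which blocks pyruvate dehydrogenase and so keeps pyruvate out of mitochondria, was at 5.21, 5.77 and 6.13 RPKM in floxed and 4.92, 5.55 and 5.08 RPKM in cKO libraries (difference -0.12, SE 0.09, interval -0.33 to 0.10, adjusted p = 0.634).

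In the pentose phosphate pathway the oxidative enzymes that yield NADPH overlapped between groups. G6pdx, the X-linked glucose-6-phosphate dehydrogenase (X, 74409483 to 74429194, minus strand), was at 12.8, 11 and 13.3 RPKM in floxed and 12, 12.2 and 12 RPKM in cKO libraries, with an interval of -0.22 to 0.16. Pgd, 6-phosphogluconate dehydrogenase, had means of 11.4 RPKM in both groups. Of the non-oxidative enzymes, which shuttle carbon between ribose and glycolysis, Tkt (transketolase) was at 15.5, 16.1 and 15.9 RPKM in floxed and 14.8, 14.3 and 13.9 RPKM in cKO libraries. Its groups did not overlap and its mean was 90.8% of the floxed one (difference -0.13, SE 0.05, interval -0.26 to -0.0027, unadjusted p = 0.0465, adjusted p = 0.344 in limma). Taldo1 (transaldolase) was at 23.6 to 27.2 and 23.6 to 25.4 RPKM. The sum of the 4 genes was 65.1 ± 3.65 RPKM in floxed and 62.1 ± 1.10 RPKM in cKO libraries, with overlapping groups (exact two-sided permutation test, p = 0.4).

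Hif1a, the oxygen-regulated subunit of HIF-1, was at 17, 18.2 and 16.1 RPKM in floxed and 17.3, 16.5 and 15.6 RPKM in cKO libraries (difference -0.05, interval -0.21 to 0.11). Of its negative regulators, the prolyl hydroxylase Egln1 (PHD2) was at 14.2, 15.5 and 16.5 RPKM in floxed and 16.5, 15.7 and 17.6 RPKM in cKO libraries (difference 0.10, SE 0.08, interval -0.08 to 0.28, adjusted p = 0.618). Egln3 (PHD3), itself a known HIF target, was at 3.29, 3.13 and 3.19 RPKM in floxed and 2.68, 2.76 and 2.52 RPKM in cKO libraries. The groups were apart, at 82.8% of the floxed mean, but the gene rested on 148 to 190 reads per library (difference -0.20, SE 0.09, interval -0.42 to 0.01, adjusted p = 0.383). Vhl, the substrate receptor of the ubiquitin ligase, was at 3.49, 2.80 and 2.68 RPKM in floxed and 3.21, 3.26 and 3.52 RPKM in cKO libraries (difference 0.12, SE 0.11, interval -0.14 to 0.39, adjusted p = 0.694). Bnip3, a mitophagy receptor and HIF target, was at 2.36, 1.95 and 3.18 RPKM in floxed and 3.11, 3.47 and 2.20 RPKM in cKO libraries, the least reproducible of the HIF genes. Myc was at 19.4, 18.6 and 21.2 RPKM in floxed and 19.2, 19.4 and 18.8 RPKM in cKO libraries (difference -0.04, interval -0.19 to 0.10).

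In several reactions 1 paralogue held most of the transcripts in all 6 libraries. Aldoa held 98.8 to 99.9% of the summed aldolase RPKM, Ldha 93.3 to 96.1% of lactate dehydrogenase, Eno1 89.5 to 93.1% of enolase and Pfkp 61.4 to 69.8% of phosphofructokinase. Hexokinase was split between Hk1 and Hk3, a further hexokinase that is no member of the set and was chosen after its values were seen, at 56.1% and 39.1% on average, with Hk2 at 4.80%. The 3 tested macrophage and monocyte markers were read as well, Lyz2 at 19.9 to 25 RPKM, Cd68 at 1.91 to 3.35 RPKM and Csf1r at 0.817 to 1.62 RPKM. Which cells held the Hk3 transcripts was not tested. For the shares, 3 libraries against 3 cannot give an exact p below 0.1, or an adjusted p under the threshold over 24 shares, so the values are given as a description. The groups did not overlap for 2 of the 24 shares, each with an exact permutation p of 0.1 and an adjusted p of 0.6. The Hk1 share was 56, 55.2 and 54.6% in floxed and 57.1, 56.8 and 57.0% in cKO libraries. That of Egln1 among the prolyl hydroxylases was 43.4, 41.0 and 44.9%, and 46.1, 47.9 and 48.2%. On average over 6 libraries Egln1 was at 45.2% against 46.4% for Egln2, but the larger mean differed between groups. In floxed libraries Egln1 was at 43.1% and Egln2 at 47.9%, and in cKO libraries at 47.4% and 45.0%.

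**Figure D3:**
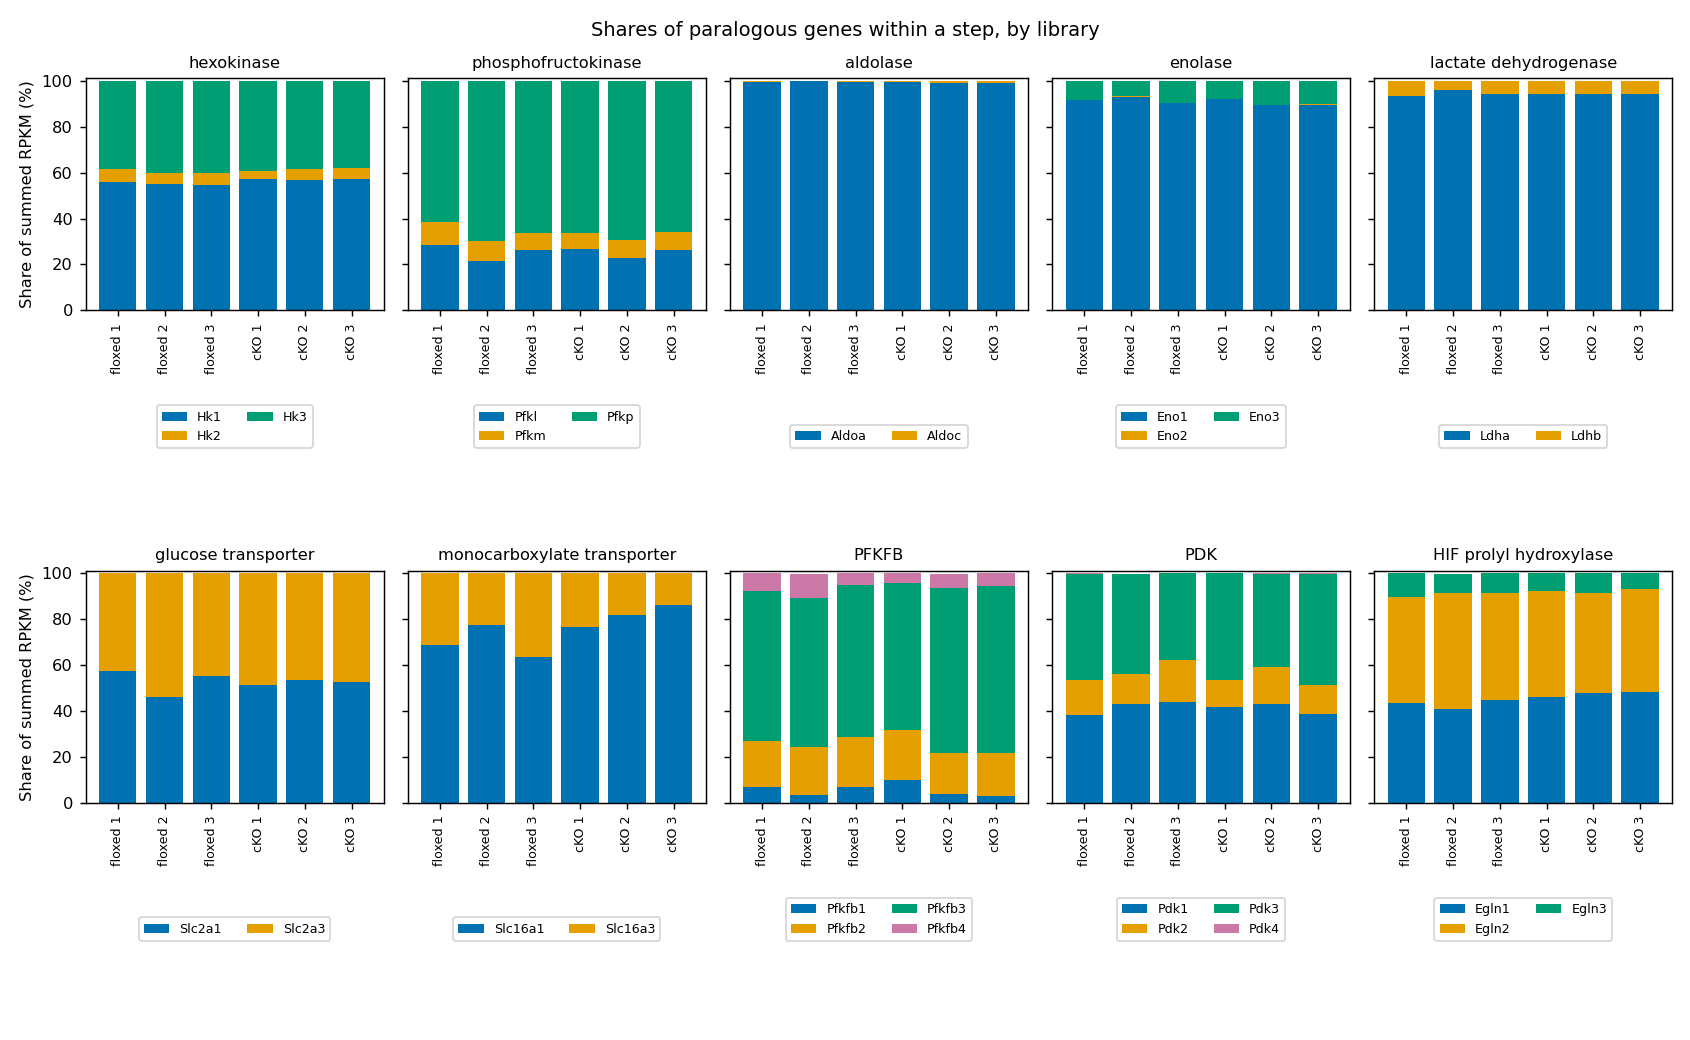
Share of each gene in the summed RPKM of its step or family, in percent, by library, with floxed libraries on the left and cKO libraries on the right of each panel. Aldolase, enolase and lactate dehydrogenase are each led by 1 gene in all 6 libraries, while hexokinase, the glucose transporters and the prolyl hydroxylases are shared.

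The order of levels between genes depended on the length each was divided by. The deposited length is the union of all annotated exons, which for Gapdh came to 4133 bases. Its mRNA had 1273 bases, taken as the complete mRNA with the longest coding sequence in GENCODE M21, which need not be the longest mRNA. Dividing by mRNA length, an alternative chosen after seeing the data, left Eno1, Pkm, Aldoa and Ldha as the 4 highest genes, at 192, 122, 106 and 78.6 RPKM in place of 72.4, 59.5, 43.7 and 43.1 RPKM. Between the latter 2 the libraries' ranges overlapped on the deposited scale (41.3 to 46.3 and 40.0 to 47.5 RPKM), so their order there was not separated. By mRNA length Ldha (73.0 to 86.6 RPKM) was likewise not separated from Gapdh (75.5 to 79.5 RPKM). Gapdh moved from rank 8 (23.8 RPKM) to rank 5 (77.1 RPKM), and Pfkfb3 from rank 23 to rank 15, its length being 7561 bases in the table and 2216 bases in the mRNA. The Hk1 share became 71.4% in place of 56.1%, that of Hk3 25.7% in place of 39.1% and that of Pfkp 79.8% in place of 66.5%. Slc2a1 and Slc2a3 changed places, from 52.8% and 47.2% to 39.8% and 60.2%. By mRNA length Egln2 had a larger mean share than Egln1 in both groups, at 54.9% against 37.3% in floxed and 52.1% against 41.3% in cKO libraries. The differences between groups do not depend on this length beyond the added 1 RPKM, since the length is the same in each library.

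Several of these genes also have near-identical copies in the genome, between which short reads can be split or discarded. Of the 50-base words of the Gapdh mRNA, 90.4% also occurred in transcripts of 218 other genes, and the share was 72.2% for Eno1, 68.0% for Pgk1, 41.5% for Pgam1 and 34.4% for Pkm. The read length and the handling of multiply mapped reads were not stated in the sources at hand, so 50 bases only illustrate the overlap, and the levels and differences of these genes are uncertain to that extent. Copies were counted in the same table, and those named next were chosen after their values were seen. The Eno1 copy Gm4735 was at 16.0 to 19.7 RPKM in floxed and 14.8 to 17.6 RPKM in cKO libraries, and the Gapdh copy Gm13394 at 6.90 to 11.1 and 6.07 to 6.86 RPKM. Pgam1-ps2 was at 6.92, 6.49 and 5.38 RPKM in floxed and 9.09, 9.04 and 10.3 RPKM in cKO libraries, the opposite order to Gm13394, with a difference of 0.53 (adjusted p = 0.0792) that did not pass. Exons of other genes overlap some members as well, for 15.3% of Pkm on the same strand, and on the opposite strand for 22.3% of Bnip3, 13.6% of G6pdx and 11.5% of Gpi1, whose reads cannot be told apart if the counting ignored strand.

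**Figure D4:**
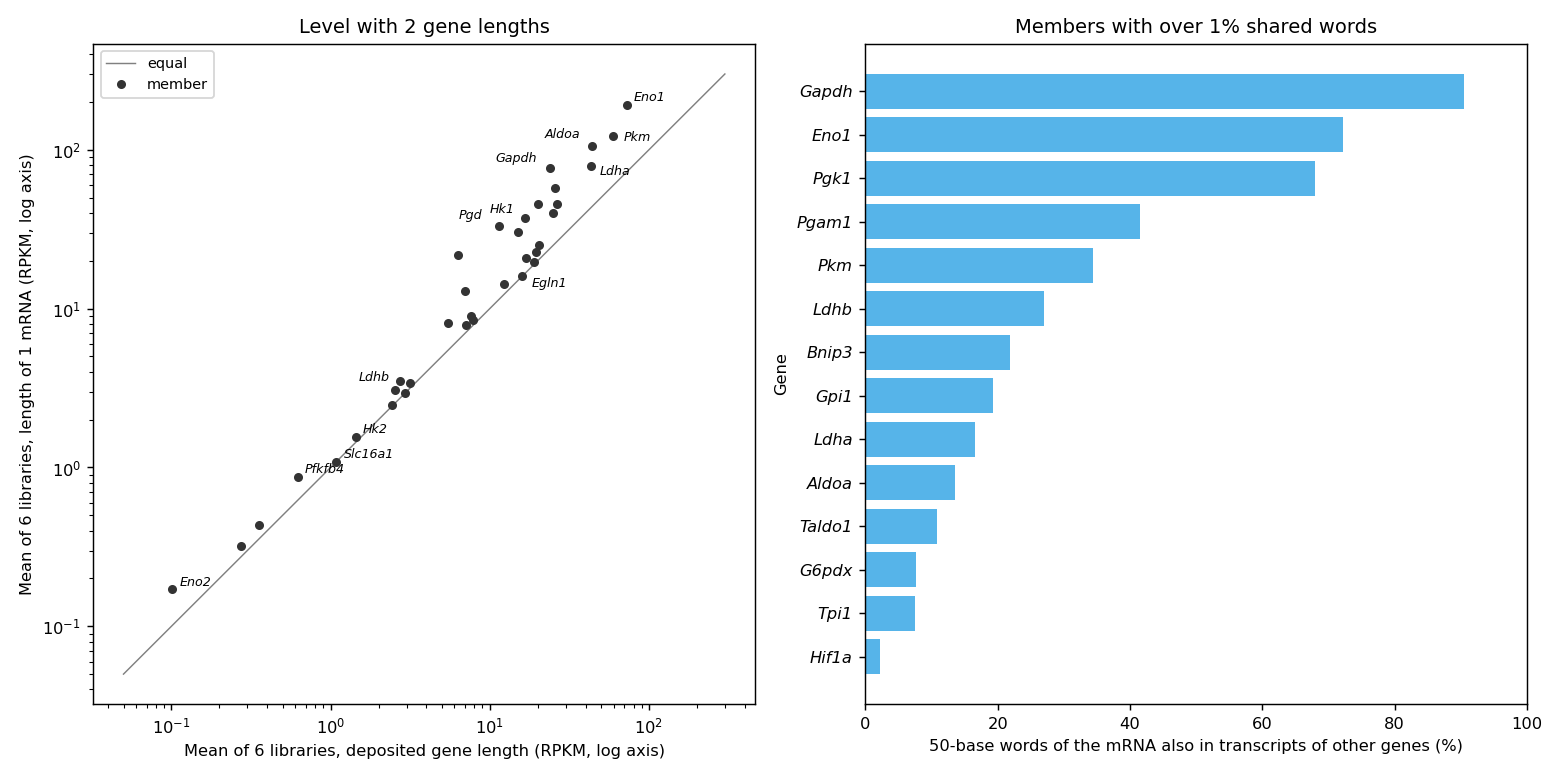
Left, mean level of each gene over 6 libraries with reads divided by the deposited gene length and by the length of 1 mRNA, in RPKM on log axes, where the line marks equal values and Gapdh lies at 23.8 and 77.1 RPKM. Right, percent of 50-base words of a gene's mRNA that also occur in transcripts of other genes, led by Gapdh with 90.4%.

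Around the set, 154 further gene symbols of the same metabolism were counted in 10 lists, and 111 genes were tested. Some genes were listed under both an older and a newer symbol. These lists too were chosen with earlier results of these data known. Of the 111 genes, 1 passed, Txnip, which fell. That is 0.901% of them, near the 1.32% of all tested genes called in either direction, so the count itself does not set these lists apart. It encodes thioredoxin-interacting protein, an arrestin-fold protein that limits glucose uptake by drawing GLUT1 and GLUT4 off the cell surface and that the glucose-sensing factors MondoA and Mlx induce. Txnip (chromosome 3, 96557957 to 96561883, plus strand, mm10) was at 91.8, 88.3 and 87.4 RPKM in floxed and 63.9, 63.5 and 64.6 RPKM in cKO libraries. The groups lay far apart, with 89.2 ± 2.34 against 64.0 ± 0.553 RPKM (SD, n = 3 each), or 71.8% (difference -0.47, SE 0.04, interval -0.57 to -0.38, adjusted p = 0.00446 in limma). This call was kept in 15 of 15 alternatives, with an adjusted p of 2.84e-07 to 0.0400. On the opposite strand lies Gm15441, whose exons cover 19.4% of those of Txnip and which was chosen after its values were seen. It was at 98.9, 94.5 and 97.9 RPKM in floxed and 69.5, 69.7 and 70.9 RPKM in cKO libraries, a difference of -0.47 as well. The library kit was stranded, but the strand setting of the counting is not given, so reads of the pair cannot be told apart with certainty.

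In the list of Txnip, the Myc network and glucose sensing genes, 11 of 14 were tested and 10 did not pass. Its other members that bear on glucose sensing, chosen after their values were seen, were among those that did not pass. Arrdc4, an arrestin-fold relative of Txnip induced by the same factors, was at 3.08, 3.02 and 2.79 RPKM in floxed and 2.73, 2.66 and 3.01 RPKM in cKO libraries. Mlx was at 29.9, 29.4 and 28.7 and at 31.5, 32.5 and 33.4 RPKM, groups apart in the direction opposite to Txnip (difference 0.14, adjusted p = 0.259), and Mlxip, which encodes MondoA, at 14.1 to 15.2 and 12.6 to 14.5 RPKM.

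The other 9 lists had 0 passing genes in limma among 100 tested, with 2 higher and 7 lower at an unadjusted p under 0.05 against 5.55% and 8.6% of all tested genes. With voom 1 was higher and 2 were lower, against 4.18% of all tested genes in either direction. The gene with the smallest p of each list is given. HIF targets outside glycolysis had 24 listed symbols, of which 15 were tested. Among them Bhlhe40, a transcriptional repressor, was at 67.7 ± 2.85 RPKM in floxed and 81.0 ± 2.96 RPKM in cKO libraries (difference 0.26, adjusted p = 0.0779, and 0.000928 to 0.243 over the alternatives, of which only voom was under 0.05). The median of that list was 0.00. Among 9 tested NADPH and glutathione genes, Txnrd1, thioredoxin reductase 1, was at 72 ± 3.28 and 58.0 ± 2.86 RPKM (difference -0.31, adjusted p = 0.0658, and 0.000643 to 0.211 over the alternatives, under 0.05 with voom and with a filter at 5 RPKM). In that list Mthfd2, a mitochondrial one-carbon enzyme chosen after its values were seen, was at 5.96 ± 0.644 and 3.92 ± 0.329 RPKM (difference -0.50, adjusted p = 0.0936, and 0.0160 to 0.261 over the alternatives, under 0.05 only with voom).

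Basigin (Bsg), the chaperone of the lactate carriers, led the 4 tested transporters at 96.3 ± 2.25 and 107 ± 4.66 RPKM (adjusted p = 0.211). Among the 8 tested other HIF pathway genes, Hif1an, the asparaginyl hydroxylase that blocks coactivator binding to HIF, was at 8.79 ± 0.317 and 7.55 ± 0.391 RPKM (adjusted p = 0.288). Shmt2, of the mitochondrial serine route, was at 36.7 ± 0.837 and 32.7 ± 0.687 RPKM (adjusted p = 0.181, 19 branch pathway genes tested), and Rheb, the GTPase that activates mTORC1, at 4.44 ± 0.143 and 3.52 ± 0.169 RPKM (adjusted p = 0.221, 15 mTORC1 and AMPK genes tested). In the remaining 3 lists, of other glycolysis and gluconeogenesis enzymes (8 tested), flux regulators with pyruvate entry (13 tested) and other pentose phosphate genes (9 tested), the smallest p belonged to G6pc3, Pdk2 and Rpia, with adjusted p of 0.522, 0.656 and 0.578. Their medians were -0.05, -0.06 and -0.05, near the -0.03 of all tested genes.

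**Figure D5:**
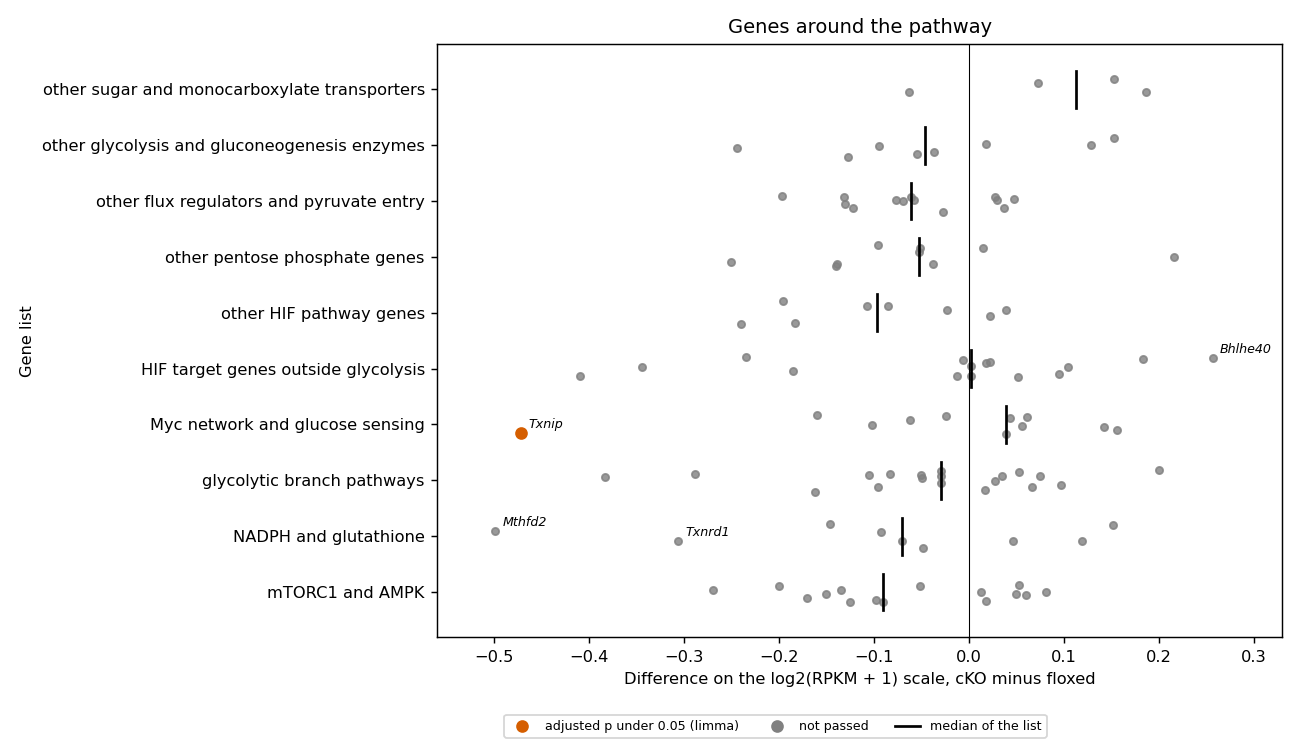
Difference of each tested gene of the 10 surrounding lists on the log2(RPKM + 1) scale, cKO minus floxed, with the median of each list as a bar. Txnip, in orange at -0.47, is the only one of 111 genes with an adjusted p under 0.05.

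The promoters of the set were read for the letters that HIF and Myc are known to prefer, ACGTG (the core of the hypoxia response element) and CACGTG (the E-box, which contains the former). Sequences from 250 bases before to 50 bases after the transcription start came from RefSeq (GRCm38.p6) and were available for 33 of the 35 genes. ACGTG on either strand was found in 19 of the 33, against 21.8% of 27025 genes with a listed promoter, and CACGTG in 6 of the 33, against 8.09%. A match is a description of the letters, not evidence of binding. Other motifs, those of MondoA and Mlx included, were not searched. Shown are 3 promoters, of Ldha, which held 5 matches in its first listed promoter and 0 in the second, of Pgk1, the member with the smallest p, and of Txnip, the surrounding gene that passed. Matches are in capitals, and those that overlap are merged.
Ldha (chr7:46845554-46845853, plus strand): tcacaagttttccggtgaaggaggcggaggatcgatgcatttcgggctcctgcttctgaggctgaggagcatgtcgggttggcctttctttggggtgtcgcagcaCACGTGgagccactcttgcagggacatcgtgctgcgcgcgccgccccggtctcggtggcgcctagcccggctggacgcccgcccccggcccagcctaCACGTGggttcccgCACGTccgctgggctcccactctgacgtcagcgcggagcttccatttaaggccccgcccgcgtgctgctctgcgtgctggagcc
Pgk1 (chrX:106186850-106187149, plus strand): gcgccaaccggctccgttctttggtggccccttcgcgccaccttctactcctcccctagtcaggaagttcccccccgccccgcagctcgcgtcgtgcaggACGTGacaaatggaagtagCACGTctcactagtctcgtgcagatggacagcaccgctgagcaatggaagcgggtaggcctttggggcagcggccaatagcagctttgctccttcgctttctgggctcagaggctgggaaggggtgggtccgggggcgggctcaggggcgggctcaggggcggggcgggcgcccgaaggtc
Txnip (chr3:96557707-96558006, plus strand): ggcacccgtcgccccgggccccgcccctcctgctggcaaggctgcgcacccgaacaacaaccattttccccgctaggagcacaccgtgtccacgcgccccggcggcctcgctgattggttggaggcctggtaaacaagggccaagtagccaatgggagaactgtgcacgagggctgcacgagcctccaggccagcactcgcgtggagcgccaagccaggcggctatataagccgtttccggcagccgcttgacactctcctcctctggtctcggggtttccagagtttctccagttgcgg
Ldha holds CACGTG at 2 places, each read as ACGTG on both strands, and ACGTG once more, Pgk1 holds ACGTG at 2 places on opposite strands, and the Txnip window holds neither motif. Ldha was at 94.2% and Pgk1 at 87.0% of the floxed mean in cKO libraries, neither of which passed, while Txnip was at 71.8%.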

How the data were processed

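The authors deposited 1 table of RPKM (reads divided by gene length and by library depth) for 24628 genes in 6 libraries, with exon coordinates and a gene length. The build mm10 and the tools edgeR 3.12.1, STAR 2.5.3a, Subread 1.5.1 and featureCounts were used, per the submitters' processing notes. Their roles, the annotation, the read length, the strand setting and the treatment of multiply mapped reads are not given in the sources at hand. Per the labels' protocols, 2 µg of TRIzol-extracted RNA went into each stranded mRNA library.

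From the deposited RPKM, whole reads were recovered for 100% of values (tolerance 0.01 reads), which gave 20152146 to 22440170 reads per library. The recovered reads of Aldoc (4 to 36 per library) and Eno2 (2 to 26) were all even numbers, while Slc16a3 and Pfkfb4 had odd ones too. Whether both ends of a fragment were counted is not given, so independent fragments may be fewer than the reads stated here. The 12731 genes that reached 1 RPKM in 3 or more of the 6 libraries were tested with limma 3.58.1 in R 4.3.3 (lmFit, then eBayes with trend, two-sided, no covariates) on log2(RPKM + 1), with Benjamini-Hochberg adjustment over all of them and a threshold of 0.05. The pseudocount of 1 understates the change of low genes. Sums and shares were compared by exact permutation over 20 assignments of libraries (smallest p 0.1). No pair of libraries agreed within sampling noise (chi-square per gene 6.79 to 28.6 at 500 or more reads), so none was merged as a library deposited a second time. Separate preparations of 1 RNA would also exceed that noise, and counting both ends of a fragment would raise it.

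The members and lists were chosen with earlier results of these data known. All 35 members are named, with full statistics for the 12 smallest p-values; of each surrounding list the passing genes, or else the gene with the smallest p, are named, along with Rora, Il2ra and Mki67. Alternatives were other pseudocounts, filters, scalings, voom, no trend, a replicate block, leaving out each library, and mRNA lengths and transcripts from GENCODE M21.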

Additional observations from a re-analysis of the deposited data

How the results depend on the processing

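Under 15 alternatives, 0 of the 31 tested genes of the set passed in either direction where they were tested: 24 genes had a value in all 15, 6 in 14 and Slc16a1, near the filter, in 11. Over all genes the calls, 83 higher and 85 lower, became 44 and 36 without a filter on low values, 224 and 308 with voom, 39 and 35 without the trend and 37 and 23 with a replicate block, and ranged from 33 to 51 higher and from 27 to 39 lower when any 1 library was left out. Deviations of same-numbered libraries were not correlated (-0.03, 0.01 and 0.04, against -0.10 to 0.09 for the other pairs). So few libraries cannot show whether samples of 1 number were handled together. The replicate block changed no call of the set. The glycolytic sum, 22.7 RPKM less in cKO libraries, had a difference of -14.5 RPKM after median-of-ratios scaling. The cause of these shifts was not tested.

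Of 455 values of single members under the alternatives, 423 kept their direction and 32, in 13 genes whose main difference was near 0, reversed. Slc16a1 was at 0.021 with quantile normalization, Pfkl at 0.016 and Tpi1 at 0.028 with median-of-ratios scaling, Pfkl at 0.034 and Tpi1 at 0.010 with quantile normalization, and Ldhb at -0.0039 with a pseudocount of 5. With 1 library left out, the ranges that crossed 0 were -0.156 to 0.030 for Slc16a1 (from the 3 leave-outs in which it was tested), -0.019 to 0.048 for Hk1, -0.114 to 0.084 for Pfkl, -0.023 to 0.057 for Pfkp, -0.041 to 0.046 for Tpi1, -0.011 to 0.025 for Gapdh, -0.015 to 0.126 for Pgam1, -0.024 to 0.189 for Eno3, -0.183 to 0.118 for Ldhb, -0.023 to 0.063 for Pfkfb3, -0.104 to 0.020 for G6pdx, -0.063 to 0.058 for Pgd and -0.081 to 0.0064 for Myc. In 12 more genes a left-out library moved the difference over 1.5 times with no change of sign: Slc2a1 (-0.21 to -0.01), Slc2a3 (-0.15 to -0.02), Hk2 (-0.20 to -0.04), Pfkm (-0.26 to -0.08), Eno1 (-0.19 to -0.08), Ldha (-0.12 to -0.04), Pdk1 (-0.17 to -0.07), Taldo1 (-0.12 to -0.03), Hif1a (-0.09 to -0.01), Egln1 (0.05 to 0.15), Vhl (0.07 to 0.21) and Bnip3 (0.05 to 0.31). In the other 6, Gpi1, Aldoa, Pgk1, Pkm, Tkt and Egln3, it stayed within 1.5 times. Members under 5 RPKM gave no value with the filter at 5 RPKM. Depth limits the low members, Slc16a3, Aldoc, Eno2 and Pfkfb4, which rested on 2 to 101 reads per library.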
